A study of Mus musculus with 8 samples.

Results

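The transcripts of 9 milk protein genes were measured in 8 mouse mammary tumours. The genes are the caseins Csn1s1, Csn1s2a, Csn1s2b, Csn2 and Csn3, the whey proteins Wap and Lalba, and the secreted proteins Glycam1 and Wfdc18. They were chosen by name, as the genes whose RefSeq accessions (unversioned) stand on non-control probes of the array. They hold 11 of the 55681 distinct probes, with 2 probes each for Wap and Csn1s2b and 1 for each of the other 7 genes, and they are 9 of the 21368 genes that could be named.

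The 4 FGFR1 KO tumours came from mice with loxP-flanked (floxed) fgfr1 alleles that also carry the K19-tva transgene, and the 4 WT tumours came from control K19-tva mice, so the WT tumours carry the transgene too. All mice were on the FVB background, and the floxed allele had been bred into it from ICR. K19-tva mice are named for the promoter of the keratin gene Krt19 and for tva, the receptor of an avian retrovirus. The agent that started the tumours, the source of recombinase, the age of the mice and their lactation state are not given in the sources used here. Tumour RNA was hybridised in red with a human reference RNA in green on a 2-colour Agilent array, and values below are log2 of tumour over reference unless signal is stated. The labels name separate samples but not separate animals, so a p-value here reflects how much these 8 samples vary, and precision is bounded by how few arrays there are.

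Milk proteins are made by the luminal alveolar cells of the mammary gland. Prolactin binds its receptor Prlr, the kinase Jak2 activates the transcription factor Stat5, and Stat5, with glucocorticoid receptor and the alveolar factor Elf5, turns on casein and whey genes in late pregnancy and lactation. Caseins assemble with calcium phosphate into micelles, while the whey proteins stay soluble. In the virgin or involuted gland most of these genes are low, so their level is widely used as a marker of alveolar differentiation.

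The 5 casein genes lie together on chromosome 5, with Csn1s1 at chr5:87666208-87682578, Csn2 at chr5:87692619-87699429, Csn1s2a at chr5:87774450-87788798, Csn1s2b at chr5:87808121-87824421 and Csn3 at chr5:87925579-87932550 (GRCm38.p6). Wap at chr11:6635483-6638654 and Wfdc18 at chr11:83709004-83711360 share a chromosome but not a locus, as do Lalba at chr15:98480400-98482934 and Glycam1 at chr15:103562759-103565081. These positions are those of the RefSeq genes, since the array files give no probe sequence, and which exon a probe covers is not stated in the sources used here. Promoters are shown because the genes varied together across tumours, and because the Stat5 site is the element through which prolactin is known to act on caseins. RefSeq promoter windows of GRCm38.p6 with 300 bases, 250 before and 50 after the start of transcription, were matched for 7 of the 9 genes. The Stat5 palindrome, searched as TTCNNNGAA, which reads the same on both strands, was found in 4 of the 7, against 8.29% of all 32817 windows. Counted from the start of transcription, it began at base -100 in Csn1s1 (TTCTTAGAA), -93 in Csn2 (TTCTTGGAA), -145 in Glycam1 (TTCCCAGAA) and 21 in Csn1s2a (TTCTTAGAA). Lalba, Wap and Wfdc18 held no match to these letters in this window. The octamer ATGCAAAT, the binding site of Oct factors, was searched on both strands and was found in 1 of the 7 windows, that of Csn1s1, as ATTTGCAT on the shown strand, against 1.74% of all windows, and it does not overlap the Stat5 match. A match is a description of letters, and binding was not measured. The first 250 bases of the window, before the start that the promoter table uses, are printed 5′ to 3′ with the Stat5 match in capitals for 3 genes that hold one, followed by 2 that hold none. For Csn2 and Wap that start lies a few bases inside the gene span given above, so the printed run overlaps the span at its 3′ end.
Csn1s1, chr5:87665958-87666207, plus strand: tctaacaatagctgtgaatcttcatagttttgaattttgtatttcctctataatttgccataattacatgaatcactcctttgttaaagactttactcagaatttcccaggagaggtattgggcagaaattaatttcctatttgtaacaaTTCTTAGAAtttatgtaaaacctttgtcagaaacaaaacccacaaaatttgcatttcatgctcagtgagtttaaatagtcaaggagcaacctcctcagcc
Csn2, chr5:87699426-87699675, minus strand: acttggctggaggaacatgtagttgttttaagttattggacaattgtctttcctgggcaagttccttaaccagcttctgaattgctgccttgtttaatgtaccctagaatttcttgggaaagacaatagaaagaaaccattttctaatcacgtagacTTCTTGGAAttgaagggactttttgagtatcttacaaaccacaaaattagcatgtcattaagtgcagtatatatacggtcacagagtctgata
Glycam1, chr15:103565082-103565331, minus strand: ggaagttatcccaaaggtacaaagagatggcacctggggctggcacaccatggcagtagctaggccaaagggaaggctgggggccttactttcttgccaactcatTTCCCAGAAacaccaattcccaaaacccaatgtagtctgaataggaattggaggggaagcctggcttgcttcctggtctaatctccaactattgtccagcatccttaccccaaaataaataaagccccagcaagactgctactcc
Wap, chr11:6638650-6638899, minus strand: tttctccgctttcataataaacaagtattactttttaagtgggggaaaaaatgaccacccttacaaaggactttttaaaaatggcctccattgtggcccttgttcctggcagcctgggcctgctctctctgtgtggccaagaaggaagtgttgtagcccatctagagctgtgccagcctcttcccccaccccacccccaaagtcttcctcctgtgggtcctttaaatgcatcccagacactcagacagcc
Wfdc18, chr11:83708754-83709003, plus strand: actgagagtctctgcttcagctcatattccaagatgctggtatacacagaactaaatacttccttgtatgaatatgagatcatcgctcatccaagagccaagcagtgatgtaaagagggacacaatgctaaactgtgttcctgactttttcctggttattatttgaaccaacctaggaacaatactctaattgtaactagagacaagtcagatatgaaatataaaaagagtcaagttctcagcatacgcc

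The share of spots well above background in red was 68.9% to 83.9% for FGFR1 KO and 43.9% to 69.2% for WT arrays, and in green it was 89.4% to 91.4% for FGFR1 KO and 69.5% to 82% for WT arrays. FGFR1 KO arrays were all in the first row of the slide and WT arrays in the second, and an effect of that position cannot be told apart from one of genotype. In a rectangle of 240 rows and 82 columns that starts at array row 97 and column 83, negative-control spots exceeded local background by over 50 red units at 0% of 96 spots on the FGFR1 KO arrays, against 17.7% to 46.9% on the WT arrays, and at 0.943% or less of 212 spots outside it on any array. WT 2 stood apart from the other arrays, with a mean correlation of 0.379 to them across probes, against 0.598 to 0.713 for the other 7. The targeted gene Fgfr1, by its probe with the highest red signal (A_55_P1967015), read 0.45, 0.27, 0.32 and 0.19 on FGFR1 KO 1 to 4 and 0.28, 0.23, 0.38 and 0.33 on WT 1 to 4, and since the sources used here do not place this probe relative to the floxed part, it does not check the labels.

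Milk protein transcripts were abundant in 6 of the 8 tumours and lower in the other 2, which were 1 tumour of each genotype. The median log2 ratio over the 9 genes was 1.36, 8.09, 7.49 and 6.66 on FGFR1 KO 1 to 4, against 5.82, 0.26, 5.45 and 4.63 on WT 1 to 4. On FGFR1 KO 1 this median was taken without Wap, whose value at its brighter probe (0.43) was left out as an outlier. FGFR1 KO 2, 3 and 4 were the highest arrays, WT 1, 3 and 4 lay below them, and FGFR1 KO 1 and WT 2 were far lower, so the groups overlapped. Red signal was well above background for 9, 11, 10 and 11 of the 11 probes on FGFR1 KO 1 to 4, and for 9, 3, 10 and 10 on WT 1 to 4. None of the 88 member spots was saturated in red, and 1 was marked as an outlier by Feature Extraction. In tumour pieces, fewer alveolar cells and less milk RNA per cell cannot be told apart.

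**Figure D1:**
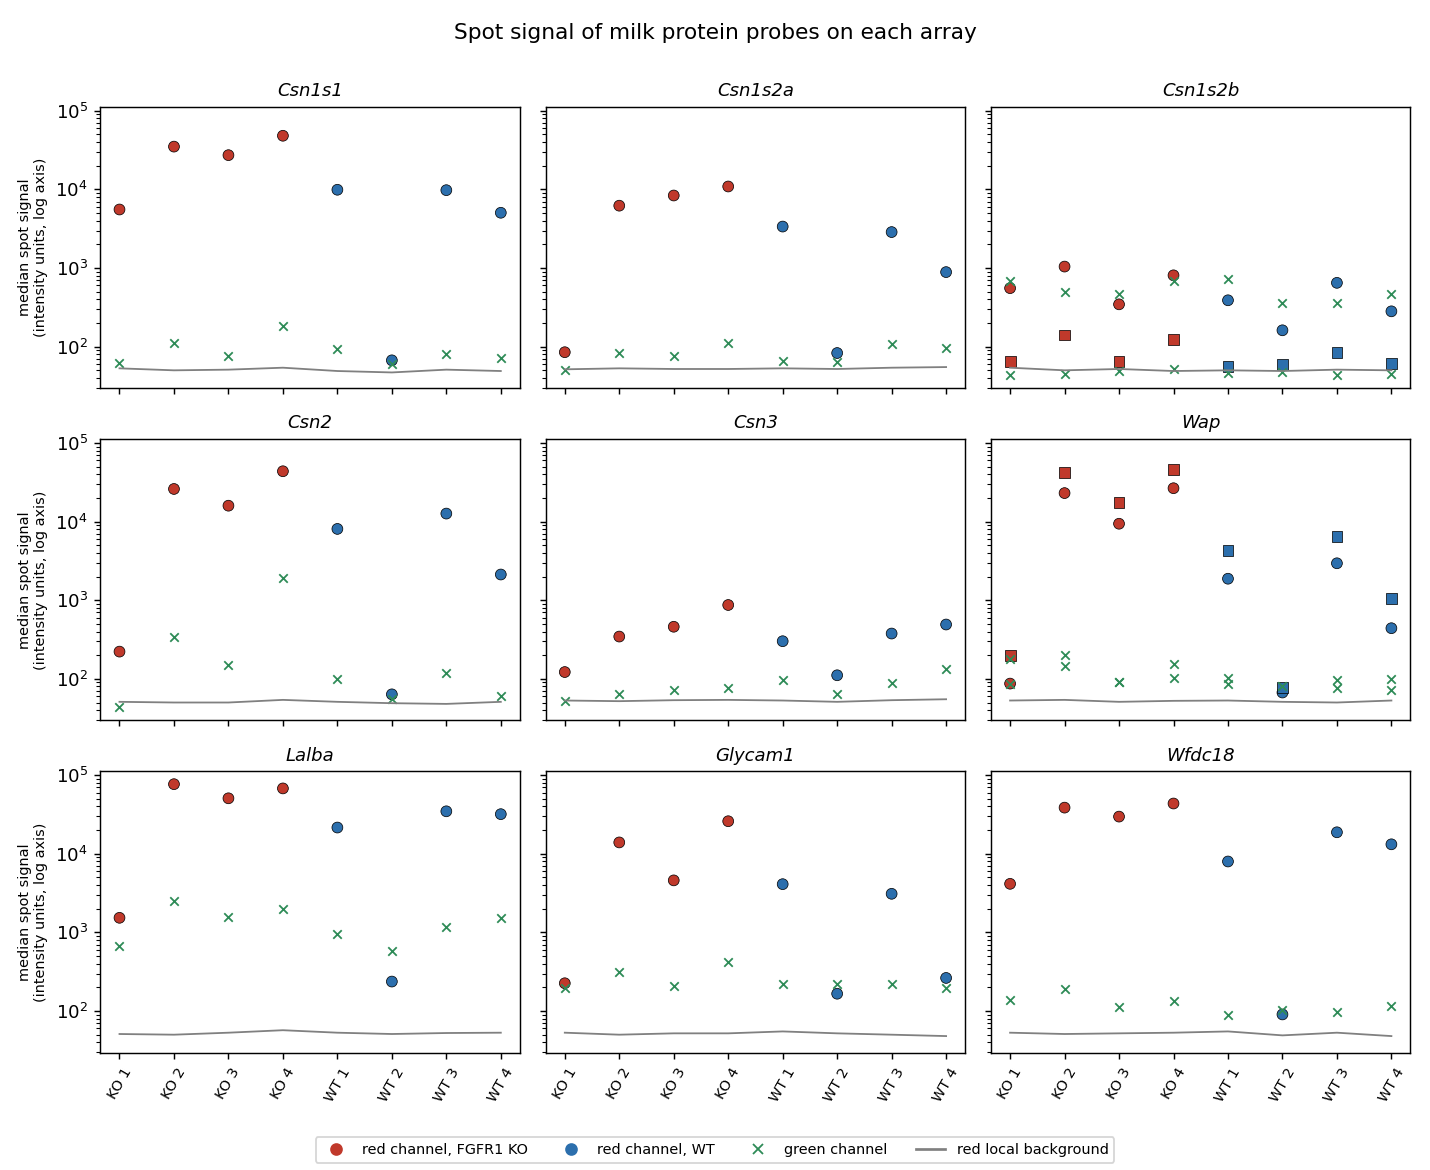
Median spot signal in intensity units on a log axis for each of the 9 genes, on FGFR1 KO 1 to 4 (red symbols) and WT 1 to 4 (blue symbols), with green-channel signal as crosses and red local background as a grey line. Circles and squares are the 2 probes where a gene has 2. WT 2 lies near background for Csn1s1 (67 units) and Wfdc18 (90.5 units), genes in which FGFR1 KO 1 still read 5557 and 4149 units.

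Of the calcium-sensitive caseins, Csn1s1 encodes alpha-S1-casein. Its red signal was 5557, 35056, 27287 and 48191.5 units on FGFR1 KO 1 to 4, against 9908, 67, 9785 and 5051 units on WT 1 to 4, over a local background of 47 to 54 units. As a log2 ratio it read 6.56, 10.31, 9.20 and 8.70 on FGFR1 KO 1 to 4 and 7.21, 0.26, 7.29 and 6.93 on WT 1 to 4. Csn1s1 was thus far above background in every tumour except WT 2, and FGFR1 KO 1 lay within the WT range. The mean was 8.69 ± 1.57 in FGFR1 KO and 5.42 ± 3.45 in WT tumours (SD, n = 4 each), a difference of 3.27 ± 1.55 (SE) with a 95% confidence interval from -0.24 to 6.78.

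Csn2 encodes beta-casein, the standard readout of prolactin action in mammary cells. Red signal was 222, 26027, 15945.5 and 43715 units on FGFR1 KO 1 to 4, against 8076, 63.5, 12655 and 2124 units on WT 1 to 4. By signal FGFR1 KO 4 was the highest array. Green signal at the same spot was 1919 units on FGFR1 KO 4 and as low as 43.5 units on FGFR1 KO 1, against 55.5 to 119 units on the WT arrays. The ratio was 2.22, 8.44, 7.59 and 5.22 on FGFR1 KO 1 to 4 and 6.81, 0.19, 7.11 and 5.85 on WT 1 to 4. FGFR1 KO 4 therefore ranked below WT 1, WT 3 and WT 4 in ratio, although its red signal exceeded that of every WT tumour. The difference in ratio was 0.87 ± 1.75 (SE), with an interval from -3.09 to 4.83, and it was 2.25 with the red channel alone after A-quantile normalization and 2.56 with red processed signal alone.

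Csn1s2a, the mouse gene once called gamma-casein, had no red signal well above background on FGFR1 KO 1 (85 units) or WT 2 (83 units). Elsewhere it reached 6215, 8373 and 10902.5 units on FGFR1 KO 2 to 4, against 3371, 2868 and 888 units on WT 1, 3 and 4. Ratios were 0.60, 8.09, 7.49 and 7.20 on FGFR1 KO 1 to 4 and 6.01, 0.49, 5.08 and 3.99 on WT 1 to 4. In FGFR1 KO 1, then, Csn1s2a was at background while Csn1s1 of the same locus was not. The difference was 1.95 ± 1.75 (SE).

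Csn1s2b, another calcium-sensitive casein gene of this locus in the mouse, spanned 3.45 on the log2 scale over the 8 arrays, a narrower range than that of every other member except Csn3 (2.89). Its probe A_55_P2076998 read 0.11, 3.13, 0.45 and 0.94 on FGFR1 KO 1 to 4 and -0.32, -0.07, 1.25 and 0.22 on WT 1 to 4. Green signal there was 464.5 to 686 units in FGFR1 KO and 360.5 to 717 units in WT, so the green channel also gave signal at this probe. The second probe, A_55_P2077003, was well above background in red on FGFR1 KO 2 and FGFR1 KO 4 and on 0 of 4 WT arrays. It read 0.30, 2.08, 0.27 and 1.18 on FGFR1 KO 1 to 4 and 0.07, 0.21, 0.84 and 0.27 on WT 1 to 4. It did not pass the filter on dim probes. Its mean normalized red signal was 6.78 in FGFR1 KO and 6.17 in WT (log2). No fold was given, since both means lay under 7.31, the bound used for dim signal at this probe. Single spots could count as well above background under that bound, as FGFR1 KO 4 did at 7.01. Both probes were highest on FGFR1 KO 2, and their values correlated at 0.96 over the 8 arrays. The difference was 0.89 ± 0.63 (SE) for the brighter probe and 0.61 ± 0.39 (SE) for the dim one.

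Csn3 encodes kappa-casein, which coats the micelle and keeps it in suspension. Values were 1.09, 3.69, 3.25 and 3.98 on FGFR1 KO 1 to 4 and 1.89, 1.09, 2.20 and 2.76 on WT 1 to 4. FGFR1 KO 1 and WT 2 were equal and lowest, and the other FGFR1 KO tumours were above every WT tumour. Its probe was dim, at 122 to 869.5 red units in FGFR1 KO and 111 to 491 in WT tumours. It was well above background on 4 of 4 FGFR1 KO and 2 of 4 WT arrays. WT 1 failed that background test at 301 units, while FGFR1 KO 1 passed it at 122 units. The 2 counts therefore do not compare signal between the groups. The difference was 1.02 ± 0.62 (SE), and it ranged from 0.52 to 1.65 over the settings tried.

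The probes of Csn1s1 (row 279, column 127), Csn1s2a (row 189, column 123), Csn3 (row 192, column 139) and the brighter one of Csn1s2b (row 297, column 86) lay in the area where negative controls were bright on the WT arrays. The other 7 probes lay outside it: Csn2 at row 138, column 21, the dim Csn1s2b probe at row 376, column 38, Glycam1 at row 131, column 79, Lalba at row 239, column 45, Wfdc18 at row 226, column 31, and those of Wap at row 133, column 55, and row 357, column 115. With the area left out, 6 genes had a probe, Csn1s2b by its dim, untested one (0.61). Spots were left out after normalization, so the other 5 genes, with probes outside the area, kept their differences by construction. The median over these 6 genes was 1.70, against 1.95 over all 9, so the 2 medians cover different genes.

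Wap encodes whey acidic protein, a major whey protein of rodent milk and the gene most closely tied to full alveolar differentiation. Probe A_51_P407705 read 0.10, 9.40, 7.45 and 8.62 on FGFR1 KO 1 to 4 and 4.81, -0.02, 5.19 and 2.93 on WT 1 to 4. Probe A_55_P2140255 read 9.86, 8.38 and 8.87 on FGFR1 KO 2 to 4 and 5.82, 0.23, 6.66 and 4.63 on WT 1 to 4. Its spot on FGFR1 KO 1 was marked as an outlier and left out of the fit, and it read 0.43. Both probes put FGFR1 KO 2 to 4 above every WT tumour, and FGFR1 KO 1 and WT 2 near 0. In red signal, A_55_P2140255 had 199, 42244, 17489 and 46296.5 units on FGFR1 KO 1 to 4, against 4244, 78.5, 6401 and 1045 units on WT 1 to 4.

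The size of the Wap difference depended on that 1 spot. It was 4.70 ± 1.38 (SE) for A_55_P2140255 over 3 FGFR1 KO and 4 WT values, with an interval from 1.53 to 7.87, 2.55 with the outlier spot kept, and 3.16 ± 2.00 (SE) for A_51_P407705 over all 8 arrays. The limma adjusted p was 0.449 for A_55_P2140255, with 0.15 as the lowest over the settings tried, and 0.688 for A_51_P407705. The separation of the groups at A_55_P2140255 rests on the missing FGFR1 KO 1 value, because the groups overlapped at the other probe.

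Lalba encodes alpha-lactalbumin, the regulatory subunit of lactose synthase. Red signal was 1534, 76850, 50801 and 67878.5 units on FGFR1 KO 1 to 4, against 21576.5, 237, 34712 and 31930 units on WT 1 to 4. The ratio was 1.64, 7.08, 5.97 and 5.79 on FGFR1 KO 1 to 4 and 5.25, -0.11, 5.45 and 5.52 on WT 1 to 4. WT 1, 3 and 4 lay close together, just below the lowest of FGFR1 KO 2 to 4. The difference was 1.09 ± 1.5 (SE), with an interval from -2.29 to 4.48. Green signal was 675 to 2523.5 units in FGFR1 KO and 572 to 1546 units in WT, lowest on the arrays with the least red signal.

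Glycam1 encodes a mucin-like glycoprotein that the lactating mammary gland secretes under prolactin, and that high endothelial venules of lymph nodes present to L-selectin. It read 0.48, 7.62, 5.34 and 6.66 on FGFR1 KO 1 to 4 and 4.82, 0.53, 4.23 and 1.31 on WT 1 to 4. FGFR1 KO 2 to 4 again exceeded every WT tumour, and WT 4, which was close to WT 1 and WT 3 in Lalba, was low here. The difference was 2.30 ± 1.56 (SE). Of 6 genes that mark high endothelial venules, 5 were on the array and tested. Their list medians were 0.13 to 0.29 in FGFR1 KO and 0.02 to 0.50 in WT tumours. By difference, 3 of the 5 were above 0 and 2 below, with a median of 0.05. In limma's test 0 passed, with or without adjustment. The 2 below 0 were Chst4, a sulfotransferase of these venules (-0.27 ± 0.19, SE), and Cdh5, an endothelial cadherin (-0.37 ± 0.31, SE). The part of these cells in the Glycam1 values was not tested.

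Wfdc18, also named Expi or WDNM1, encodes a small secreted protein with the same 4-disulfide core as whey acidic protein. Red signal was 4149, 38661.5, 29722 and 43620 units on FGFR1 KO 1 to 4, against 7983, 90.5, 18775 and 13203 units on WT 1 to 4. The ratio was 5.25, 9.81, 8.86 and 8.96 on FGFR1 KO 1 to 4 and 6.95, 0.37, 8.0 and 7.83 on WT 1 to 4. As with Csn1s1, FGFR1 KO 1 kept a high level, and WT 2 alone was near background. The difference was 2.43 ± 1.70 (SE).

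**Figure D2:**
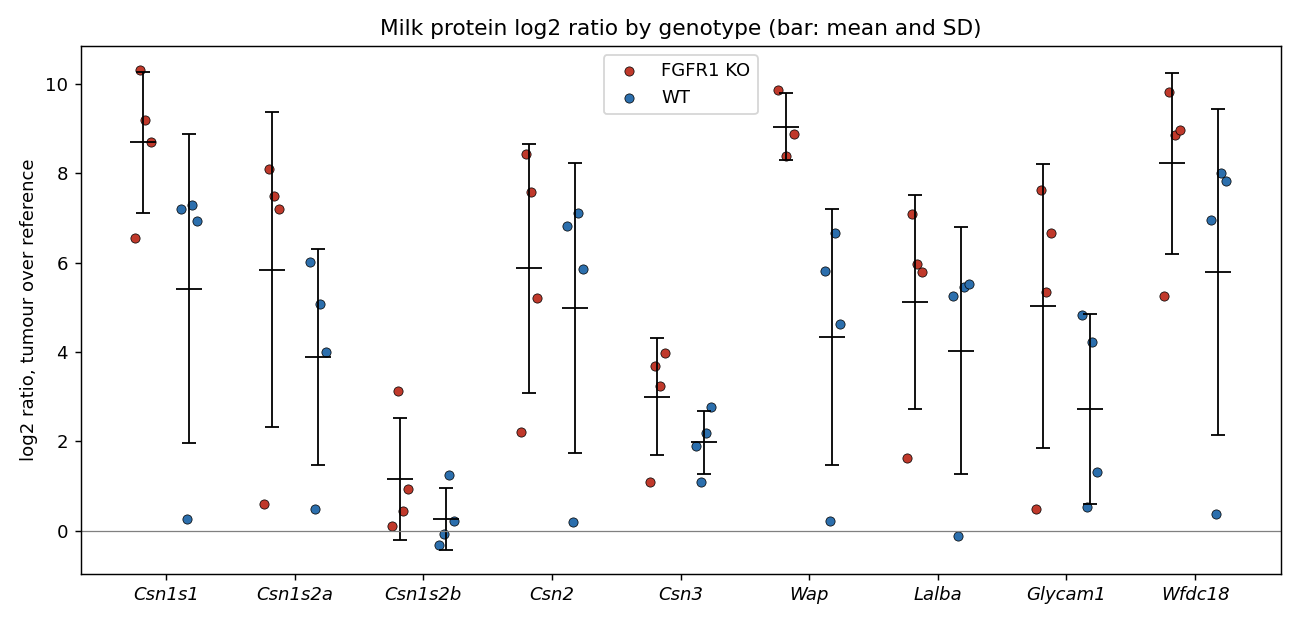
Log2 ratio of tumour to reference for each gene by its brightest probe, with FGFR1 KO left of WT, points for single arrays and bars for the mean and SD (n = 4, and 3 FGFR1 KO values for Wap). In each group of 4, 1 array lies far below the rest for most genes, FGFR1 KO 1 and WT 2, and Csn1s2b stays below 3.2 on every array.

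Milk protein transcripts were then compared by genotype, as FGFR1 KO minus WT in mean log2 ratio. Of the 11 probes, 10 passed the filter on dim probes, which a probe could pass through the FGFR1 KO arrays alone. The difference was above 0 at these 10, against 52.5% of all probes tested. Of the 10 tested, 0 passed limma's test at an adjusted p of 0.05 over all 39795 probes tested, where 0% were called higher and 0.0101% lower. At an unadjusted p under 0.05, 1 of the 10 passed, the Wap probe that lacks FGFR1 KO 1, against 8.48% of all probes tested. The limma adjusted p ran from 0.449 to 0.899.

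By size, 8 of the 10 tested probes differed by over 1 on the log2 scale, against 0.807% of all probes tested. The 9 genes had a median difference of 1.95, against 0.00 over 16731 genes tested. That median was smaller than the spread between tumours, an SD of 2.84 within groups for the array medians over the 9 genes (without Wap on FGFR1 KO 1). The groups did not overlap at 1 probe, that of Wap without FGFR1 KO 1, against 2.39% of all probes with every FGFR1 KO value above every WT value. In a count chosen after the values were seen, 8 of the 10 tested probes, of 7 genes, had at least 3 FGFR1 KO values above every WT value, against 10.4% of all probes tested. The genes left out of that count are Csn2 and Csn1s2b.

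**Figure D3:**
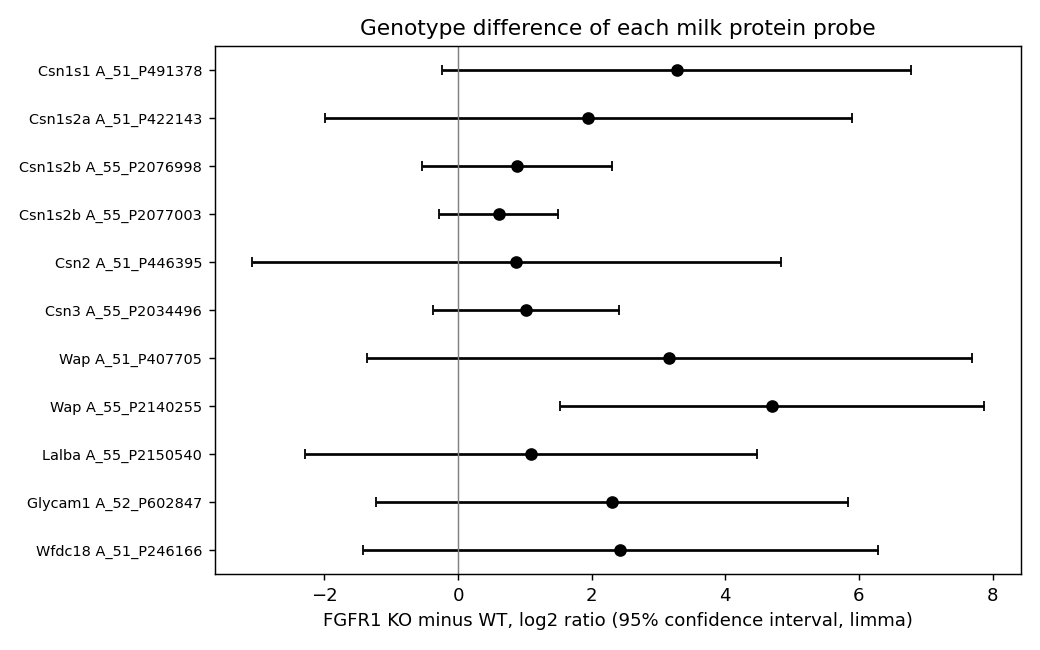
Difference of FGFR1 KO minus WT in log2 ratio for each of the 11 probes, with 95% confidence intervals from limma. All points lie right of 0, and only the interval of the Wap probe A_55_P2140255, from 1.53 to 7.87, does not cross it.

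The differences moved in opposite directions when either low tumour was left out. Both tumours were singled out for their low values in these same genes, which varied together, so the counts of overlap are descriptions. Without FGFR1 KO 1, the 9 genes had a median difference of 3.42, the groups did not overlap at 8 of the 10 tested probes, against 5.54% of all probes tested, and Glycam1 differed by 3.82 ± 1.1 (SE), Csn1s2a by 3.70 ± 1.16 and Csn3 by 1.65 ± 0.38. The limma adjusted p was then 0.343 or higher for every tested member. Without WT 2, the median difference was 0.77, the groups did not overlap at 1 probe, against 4.29% of all probes tested, and Csn2 turned to -0.73 ± 1.27 (SE) and Lalba to -0.29 ± 1.07. Wap by A_55_P2140255, which also lacked FGFR1 KO 1, was then 3.33 ± 0.54 (SE; limma, adjusted p = 0.15). Without both WT 1 and WT 2, the median was 0.52. Leaving out FGFR1 KO 2 gave a median of 1.21, so this tumour, the highest at 10 of 11 probes, also moved it by over 1.5 times.

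**Figure D4:**
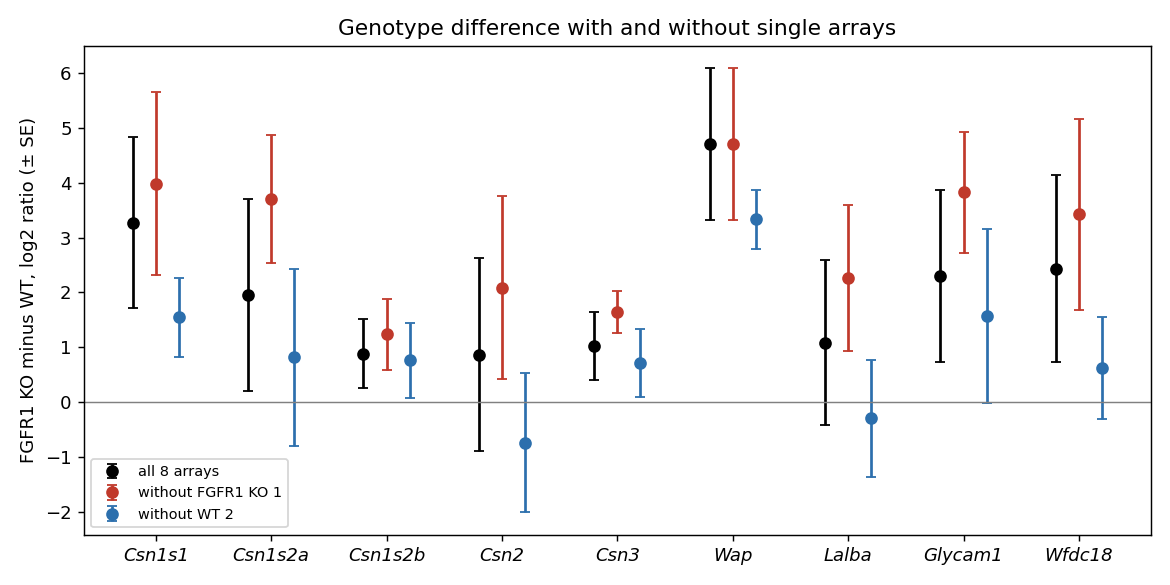
Difference of FGFR1 KO minus WT in log2 ratio (± SE, limma) for each gene over all 8 arrays, without FGFR1 KO 1 and without WT 2. All 3 points of Wap lack FGFR1 KO 1, left out as an outlier, so the first 2 are the same (4.70 ± 1.38). The values without WT 2 are the lowest for each gene, and those of Csn2 and Lalba lie below 0, at -0.73 and -0.29.

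Among themselves, the 9 genes varied together over the arrays, with Pearson correlations from 0.55 to 0.98 and a median of 0.85 over 36 gene pairs. The points are 8 arrays of both genotypes that share the same low tumours, so these are descriptions. Wap had the highest median correlation with the other members, at 0.92, and Csn1s2b the lowest, at 0.57. The closest match by the rule used here was sought among 10267 other named genes with signal above background on all 8 arrays, by correlation with the mean standardized casein value. Genes at background on any array could not be chosen, among them Elf5 and Prlr, each above it on 3 WT arrays. Only 3 member probes passed that filter themselves. It gave the splicing factor gene Srsf6 (0.986), the kinase gene Rps6ka1 (0.984), Trim46 (0.983), the sterol isomerase gene Ebp (0.979) and the splicing factor gene Prpf31 (0.978). Values over the 8 arrays ran from -0.66 to 0.37 for Srsf6 and from 0.00 to 2.05 for Rps6ka1.

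Genes of milk fat globules, lactose synthesis and secretion had 14 of 19 tested members above 0, against 49.6% of all genes tested, with a median difference of 0.49. In limma's test 0 passed in either direction, and 3 had an unadjusted p under 0.05, against 8.25% of all genes tested. Their median was 0.42, 1.78, 1.75 and 1.36 on FGFR1 KO 1 to 4, against 0.90, 0.03, 1.17 and 0.88 on WT 1 to 4. By these medians FGFR1 KO 1 and WT 2 were lowest here too. Not every member followed the median. Cidea (3.70), Lpl (3.07) and Thrsp (7.55), named after their values were seen, were at their highest on WT 2. Olah, the thioesterase that ends medium-chain fatty acid synthesis in the mammary gland, read 0.37, 4.30, 3.25 and 4.30 on FGFR1 KO 1 to 4, against 1.09, 0.67, 0.90 and 0.66 on WT 1 to 4. Olah was low in FGFR1 KO 1 and in every WT tumour, and its difference was 2.23 ± 0.77 (SE; limma, adjusted p = 0.493). B4galt1, the catalytic partner of alpha-lactalbumin in lactose synthase, read -0.07, 0.67, 1.03 and 1.97 on FGFR1 KO 1 to 4 and -0.11, -0.48, 0.33 and -0.34 on WT 1 to 4, a difference of 1.05 ± 0.39 (SE; limma, adjusted p = 0.534).

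In prolactin and Stat5 signalling, 10 of 14 tested genes were above 0, against 49.6% of all genes tested, with a median of 0.09. Limma's test called 0 in either direction, and 1 had an unadjusted p under 0.05, against 8.25% of all genes tested. Prlr, the prolactin receptor gene, read 7.99, 5.30, 5.86 and 3.96 on FGFR1 KO 1 to 4 and 2.95, 0.05, 3.35 and 5.97 on WT 1 to 4. It was highest in FGFR1 KO 1, a tumour low in most milk proteins, and lowest in WT 2. Stat5a, which encodes the main Stat5 protein of the mammary gland and whose probe lay in the bright area, read 1.20, 2.13, 1.87 and 2.18 on FGFR1 KO 1 to 4 and 1.31, 1.08, 1.22 and 1.39 on WT 1 to 4. Stat5a differed by 0.60 ± 0.22 and Prlr by 2.70 ± 1.21 (SE; limma, adjusted p = 0.531 and 0.597). Elf5, named after its values were seen, read 3.60, 6.58, 5.78 and 6.83 on FGFR1 KO 1 to 4 and 4.37, -0.03, 5.23 and 5.19 on WT 1 to 4, with FGFR1 KO 1 and WT 2 again lowest.

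Neighbouring genes of the casein locus that are not milk genes had list medians near 0, but single genes spread more widely. Of 9 on the array, 5 were tested and 4 of these were above 0, against 49.6% of all genes tested. Limma's test called 0 of them, with or without adjustment. List medians were 0.17 to 0.25 in FGFR1 KO and -0.04 to 0.18 in WT tumours. Sult1e1, the estrogen sulfotransferase gene, named after its values were seen, read 1.14, 0.85, 1.1 and 1.64 on FGFR1 KO 1 to 4 and 1.33, 0.00, 0.99 and 1.40 on WT 1 to 4, lowest on WT 2. Sult1d1, another sulfotransferase gene, differed by 0.51 ± 0.23 and Ambn, an enamel matrix gene, by 0.23 ± 0.14 (SE). Other genes with the whey acidic protein domain had 5 of 13 above 0 and a median of -0.05, with 0 passing limma's test, with or without adjustment. Wfdc17 differed by -1.11 ± 0.67 and Wfdc21 by -0.32 ± 0.23 (SE).

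Cell type markers also differed between the low tumours. The 10 luminal epithelial genes, markers of the cells that can make milk, had medians of 2.35, 2.02, 1.54 and 2.06 on FGFR1 KO 1 to 4, against 1.56, -0.52, 2.27 and 2.65 on WT 1 to 4. By these medians WT 2 was lowest of the 8 arrays. The list was split on FGFR1 KO 1, which among the FGFR1 KO arrays was highest for 6 of the 10 genes and lowest for 4. Among the same arrays FGFR1 KO 1 was lowest for 8 of the 9 milk protein genes. The other gene, Wap, could not be counted, since its FGFR1 KO 1 value was left out as an outlier. The keratin gene Krt7 read 3.08, 0.68, 1.60 and 0.63 on FGFR1 KO 1 to 4 and 1.56, 3.38, 2.65 and 2.74 on WT 1 to 4, a difference of -1.09 ± 0.57 (SE). The epithelial transcription factor gene Ehf read 2.30, 4.44, 4.37 and 3.88 on FGFR1 KO 1 to 4 and 1.99, -0.16, 3.82 and 3.37 on WT 1 to 4, a difference of 1.5 ± 0.84 (SE). Krt7 was thus highest on WT 2 and Ehf lowest there. Of the 10 luminal genes, 9 were above 0, against 49.6% of all genes tested, with a median of 1.30. Limma's test called 0 of the 10, with or without adjustment.

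Muscle and fat markers were high in WT 2. The skeletal muscle median was -0.16, 0.82, 0.05 and -0.43 on FGFR1 KO 1 to 4, against 2.52, 8.73, -0.06 and 0.08 on WT 1 to 4. The adipocyte median was 0.34, 0.25, 0.43 and 0.21 on FGFR1 KO 1 to 4, against 3.64, 4.30, 0.43 and 0.31 on WT 1 to 4. WT 1 shared the high fat markers but kept a milk protein median of 5.82. In muscle, 9 of 9 tested genes were below 0, against 8427 of all 16731 genes tested. Myl1, a myosin light chain gene, was at -3.12 ± 1.49 and Tnnt3, a troponin gene, at -2.69 ± 1.63 (SE). In fat, 8 of 8 were below 0, with the fatty acid binding protein gene Fabp4 at -3.59 ± 1.36 and the adiponectin gene Adipoq at -2.55 ± 1.08 (SE). Among other cell types, fibroblast genes had 7 of 7 below 0 (median -1.68; Lum at -2.19 ± 0.44 and Fap at -1.55 ± 0.38, SE), leukocyte genes 5 of 5 (median -0.35; Cd79a at -1.07 ± 0.44 and Cd3e at -0.35 ± 0.22, SE), and basal and myoepithelial genes 3 of 8 (median 0.18; Trp63 at -0.18 ± 0.14 and Myh11 at 0.56 ± 0.56, SE). In these 5 lists too, 0 genes passed limma's test in either direction, while 7 of 7 fibroblast, 3 of 8 adipocyte, 1 of 5 leukocyte, 0 of 9 muscle and 0 of 8 basal genes had an unadjusted p under 0.05, against 8.25% of all genes tested. The part of any of these cells in the milk protein differences was not tested.

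**Figure D5:**
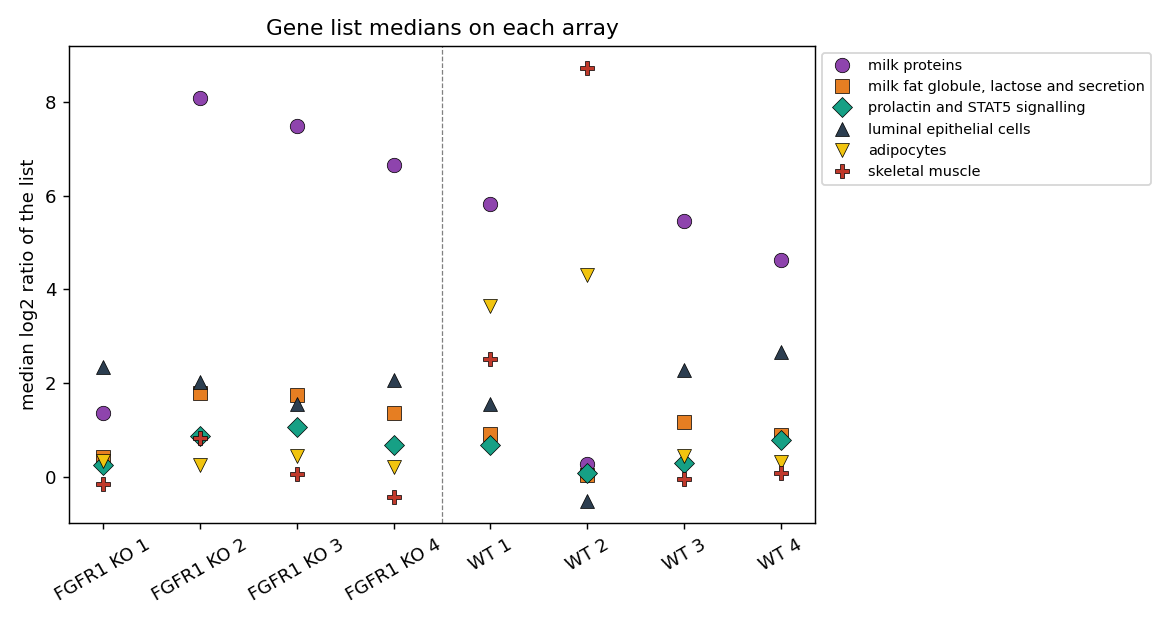
Median log2 ratio of 6 gene lists on each array, with FGFR1 KO 1 to 4 left of the dashed line and WT 1 to 4 right of it. Milk proteins stand at 1.36 on FGFR1 KO 1 (without Wap, left out there as an outlier) with luminal genes at 2.35, and at 0.26 on WT 2 with luminal genes at -0.52 and skeletal muscle genes at 8.73.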

How the data were processed

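Tumour RNA from 4 FGFR1 KO and 4 WT samples was measured on 1 2-colour Agilent array each. Per the file headers, Agilent Feature Extraction 11.0.1.1 made the deposited files, and probes were designed on mm9. Per the file headers, median signals and median backgrounds are intensities with no correction, processed signals are intensities after background subtraction and dye normalization, and the log ratio is a log10 value, red divided by green. The deposited series matrix holds values taken as log2 red over green, whose correlation was 0.892 to 0.947 with Agilent's log ratio and 0.985 to 0.991 with the values computed here, with medians of 0.0155, -0.0152, -0.000673 and 0.00487 on FGFR1 KO 1 to 4 and -0.0044, -0.0014, -0.00486 and 0.00217 on WT 1 to 4. Its direction follows from these correlations, while its log base was taken as log2 and its normalization and centring are not given in the sources used here. The label field names cy3, while the labelling protocol gives tumour RNA the red dye and human reference RNA the green one, and red was taken as tumour.

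Signals were corrected by normexp (offset 50) and ratios normalized by loess within arrays (limma 3.58.1, R 4.3.3), with control and outlier spots at weight 0 and then left out. The 39795 probes (of 55681) whose red signal passed Agilent's background test on 4 or more of 8 arrays, with at least 3 values per group (2 where arrays were left out), were tested by lmFit and eBayes, two-sided, with Benjamini-Hochberg adjustment and a threshold of 0.05. Probes were named by RefSeq accession in the NCBI table of GRCm38.p6, which named 28331 probes. A gene is given by its probe with the highest mean red signal. Fits were checked on simulated arrays. Members and lists were chosen with earlier results of these data known. The genes named are the members and up to 2 genes with the smallest p of each list, with exceptions marked. Also named are the 5 genes most correlated with the caseins among those above background on all 8 arrays. Alternatives changed background correction, normalization, filters, outlier spots, array area, weights, eBayes settings, arrays left out, the replicate number as a block, and the probe of a gene.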

Additional observations from a re-analysis of the deposited data

Results flagged for a closer look

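Dixon's test was run on the 21 groups of 4 values that the 11 probes gave, and in 4 of them 1 array stood apart beyond the 95% critical value, which chance alone passes in about 1 in 20 groups. That rate holds for independent groups, while these come from the same arrays and from genes that varied together. The 4 are therefore a description. WT 2 read 0.26 for Csn1s1, where the other WT arrays read 6.93 to 7.29. For Lalba, WT 2 read -0.11 against 5.25 to 5.52, and for Wfdc18 it read 0.37 against 6.95 to 8.0. In Csn1s2a, FGFR1 KO 1 read 0.60, where the other FGFR1 KO arrays read 7.20 to 8.09. The Wap probe A_55_P2140255 had 3 FGFR1 KO values and was not checked in that group.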

How the results depend on the processing

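No milk protein probe passed limma's test under any setting tried. The lowest adjusted p was 0.15, for Wap without WT 2, at the probe that also lacked FGFR1 KO 1. The median difference of the 9 genes was above 0 in every setting, from 0.52 without WT 1 and WT 2 to 3.42 without FGFR1 KO 1, and with 1 array left out it ran from 0.77 to 3.42. Csn2 ran from -0.73 to 2.09 and Lalba from -0.29 to 2.26 with 1 array left out, turning below 0 without WT 2, and they were -0.62 and -0.36 without both WT 1 and WT 2. The other 7 genes stayed above 0 in every setting. Over all probes, 4 were called, all lower. The count was 139 with no filter on dim probes, 27 with the red channel alone after A-quantile, 11 with array weights, and 0 with Agilent's log ratio, median centring, red processed signal, the bright area left out, probes above background on all 8 arrays, trend and robust eBayes, or without WT 1 and WT 2, and it ran from 0 to 1 with 1 array left out. The cause was not tested. Same-numbered arrays did not deviate together (correlations of -0.04, 0.01, 0.11 and -0.11). Samples can be paired without such a shared deviation, so these values cannot settle whether the numbers pair them. With the replicate number as a block, the count over all probes was 0, 0 milk protein probes were called, and the median difference was 1.95. The median difference over all probes was 0.141 with red processed signal, a shift of 0.125 from 0.016, and the milk protein median was then 2.42. With Agilent's log ratio it was 0.116, and the milk protein median was 1.70. Signal limits Csn3, above background in red on 2 of 4 WT arrays, and the second Csn1s2b probe, above it on 0 of 4. For Csn3, WT 1 failed Agilent's background test at 301 units, while FGFR1 KO 1 passed it at 122 units.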
